A study of Homo sapiens with 23 samples.

Results

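The polysomal levels of 43 genes of the ATF4 programme and of amino acid supply were followed in the diffuse large B-cell lymphoma (DLBCL) lines SUDHL-2 and SUDHL-4. The genes were chosen by name, and a gene was measured when at least 1 of its array probes was above background (detection p at or under 0.02 against the array's negative controls) on every array of at least 1 of the 8 groups. By this rule 38 of the 43 genes were measured, with 52 probes, among 14636 entries (genes, or probes without a single gene symbol) tested in all. GPT2 had no probe in the annotation used and was not analysed here. PHGDH, the first enzyme of serine synthesis, was above background on 2 of the 23 arrays and NUPR1 on up to 4. STC2 and VLDLR were above background on 0 arrays, and these 4 genes were given no level.

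Both lines are established cultures without an engineered allele, SUDHL-2 of the activated B-cell-like type and SUDHL-4 of the germinal center B cell-like type. In the INK128 experiment each line received 40 nM INK128, a kinase inhibitor of both mTOR complexes, or 0.01% DMSO for 24 h. In the EtOH experiment each line received 20 mM EtOH or water for 48 h, with the EtOH cultures kept in sealed flasks. Each group had 3 arrays, and only SUDHL-2 with EtOH had 2. RNA of the heavy polysome fractions, 9 to 11 of the sucrose gradient, was pooled and read on Illumina HumanHT-12 BeadChips. Such RNA holds messages carrying many ribosomes, so more mRNA in the cell and a heavier ribosome load cannot be told apart here, and total RNA was not analysed. The same mass of RNA went on each array, so a level is relative to the other transcripts of the pool.

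ATF4 is a transcription factor whose mRNA is translated when eIF2α is phosphorylated by a stress kinase, among them GCN2, the sensor of amino acid shortage. It pairs with C/EBP proteins on a composite DNA element and switches on amino acid transporters, the enzymes that make serine, glycine, proline and asparagine, and feedback regulators of the stress response. mTORC1 also raises ATF4 output in growing cells, which ties amino acid supply to growth signalling, and proliferating lymphoma cells draw on both uptake and synthesis.

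Arrays detected 14699 to 17098 probes above background (median 15360), and the number of arrays limits the precision. SUDHL-2 DMSO replicate 1 had the highest number of detected probes and the widest spread of signals (17098, SD 2.17). SUDHL-2 water replicate 2 came close to it (16912, SD 2.16). Replicates agreed least in SUDHL-2 with INK128 (lowest correlation 0.957). The INK128 counts are given with and without SUDHL-2 DMSO replicate 1, and without SUDHL-2 INK128 replicate 1. The B cell markers MS4A1, CD79A and CD79B were detected on every array, but their levels differed between the lines. As SUDHL-2 minus SUDHL-4 on the log2 scale, CD79B differed by -5.0432 with DMSO and -4.1867 with water. CD79A differed by -2.9297 and -2.1666 (adjusted p up to 1.56e-08 for both genes, limma). MS4A1 was higher in SUDHL-2 with DMSO (1.0401, adjusted p = 0.00337, limma) and was not called with water (0.1522). PAX5 was not detected. Of the activated B-cell-like markers IRF4 and TNFRSF13B were higher in SUDHL-2 (4.66 and 2.55 on the log2 scale in DMSO). IL16 was not called with DMSO and was lower in SUDHL-2 with water (-0.19, adjusted p = 0.041, limma), against the label. CCND2 was above background on 2 SUDHL-2 arrays and 0 SUDHL-4 arrays, and LIMD1 and CCL4 on 0 arrays. Of the germinal center markers MME, BCL6, MYBL1 and SERPINA9 were lower in SUDHL-2, and S1PR2 was not detected. LMO2, a germinal center marker, went against the label and was higher in SUDHL-2 by 1.97. The T cell markers CD3D and CD3E and the myeloid markers CSF1R and ITGAM were above background on 0 arrays. CD3G was detected on 1 SUDHL-2 array. CD2, LYZ, CD14 and FCGR3A were detected on part of the arrays in both lines, and the part of these genes in the results was not tested. The paper describes the replicates of its microarray analysis as independent, without saying at which step they were separate. The labels do not say whether arrays of a group came from separate cultures. The p-values therefore measure the spread between these arrays, which may be technical.

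With INK128 the measured genes of the programme lay mostly below their DMSO level in both lines, and those that passed the test were lower with 1 exception. The transcription factor ATF5, the one-carbon enzyme MTHFD1L and the glutathione-degrading enzyme CHAC2 passed in both lines. Among those passing only in SUDHL-4 were the factors CEBPB and DDIT3, the transporters SLC7A5, SLC1A5 and SLC1A4, and the serine enzyme PSAT1. DDIT4 was among those passing only in SUDHL-2. ATF4 itself showed no difference that passed the test in any comparison of treated with control arrays. In SUDHL-2 5 of the 38 genes were lower and 0 higher at an adjusted p under 0.05 (limma, Benjamini-Hochberg over all 14636 entries), where 1.47% of all entries were lower, 2.15% higher and 3.62% called either way. In SUDHL-4 13 were lower and 1 higher, against 7.17% and 8.27% of all entries (15.4% either way). Medians of the 38 differences were -0.31 in SUDHL-2 and -0.30 in SUDHL-4 on the log2 scale, beside 0.03 and -0.06 over all entries. All INK128 arrays lay below all DMSO arrays for 14 genes (SUDHL-2) and 22 genes (SUDHL-4), beside 7.99% and 18.3% of all entries. The reverse held for 0 and 2 genes, beside 9.07% and 18.3% of all entries. The estimate was negative in both lines for 26 of the 38 genes, and for 4032 of all 14636 entries. Without SUDHL-2 DMSO replicate 1 the counts of called genes were 3 in SUDHL-2 and 15 in SUDHL-4. Without SUDHL-2 INK128 replicate 1 the count in SUDHL-2 was 8. With median centring 129 of 284 calls over all entries were higher in SUDHL-2 (315 of 530 otherwise) and 642 of 1861 in SUDHL-4 (1210 of 2260). With SUDHL-2 fitted on its own 6 arrays, 0 of the 38 genes and 6 of all entries passed.

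**Figure D1:**
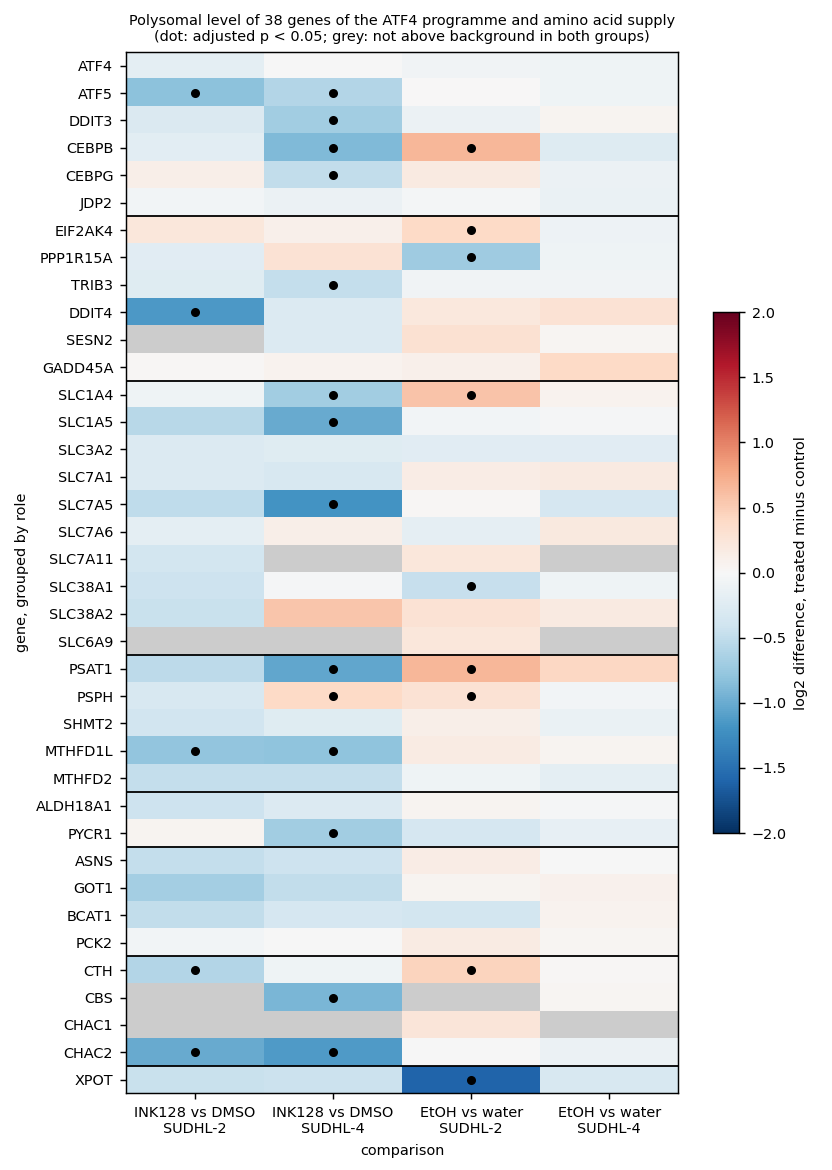
Log2 difference of treated minus control arrays (colour) for the 38 measured genes (rows, grouped by role) in the 4 treatment comparisons (columns). Black dots mark an adjusted p under 0.05 and grey cells genes not above background in either group. The INK128 columns are mostly blue, with 5 and 13 genes called lower, while the EtOH column of SUDHL-4 has 0 dots.

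Of the 6 measured transcription factors SUDHL-2 had 1 that fell and SUDHL-4 had 4. ATF5, a close relative of ATF4 that acts in the same stress response, fell in both lines. Its level, as log2 signal scaled alike on all arrays with 0 at the mean of the kept probes, was 2.27, 2.49 and 2.50 on the SUDHL-2 DMSO arrays and 1.53, 1.69 and 1.57 with INK128. In SUDHL-4 it was 3.59, 3.62 and 3.52 against 2.80, 3.04 and 3.10. Treated and control arrays did not overlap in either line. The differences were -0.82 (SE 0.12, adjusted p = 0.00334) in SUDHL-2 and -0.59 (SE 0.12, adjusted p = 0.00452) in SUDHL-4, limma, n = 3 against 3.

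ATF4 was measured by 3 probes on all 23 arrays. Levels were 0.71, 0.61 and 0.71 with DMSO and 0.46, 0.35 and 0.64 with INK128 in SUDHL-2, and 1.26, 1.38 and 1.48 against 1.44, 1.34 and 1.32 in SUDHL-4. The arrays overlapped in both lines. The 95% intervals of the difference were -0.43 to 0.05 (SUDHL-2) and -0.25 to 0.24 (SUDHL-4), and the sign of the SUDHL-4 estimate of -0.01 depended on the normalization.

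CEBPB, a C/EBP partner of ATF4, read 1.54, 1.59 and 1.59 in SUDHL-4 DMSO arrays and 0.62, 0.80 and 0.65 with INK128. The 3 treated arrays lay close together and far below the controls, and the gene fell by 0.89 (SE 0.16, adjusted p = 0.00255, limma). In SUDHL-2 its arrays overlapped, at 0.25, 0.38 and 0.06 against -0.37, 0.10 and 0.33. DDIT3, which encodes the stress factor CHOP, read 0.11, 0.19 and 0.35 in SUDHL-4 with DMSO and -0.41, -0.44 and -0.59 with INK128. It fell by 0.69 (adjusted p = 0.0133, limma), a call that ended without SUDHL-4 DMSO replicate 3 or INK128 replicate 3 (adjusted p up to 0.0619). In SUDHL-2 DDIT3 ranged from -0.14 to 0.37 with DMSO and from -0.43 to 0.15 with INK128, with overlap. CEBPG, another partner, was lower in SUDHL-4 by 0.49 (adjusted p = 0.0412), a call lost with 7 of 12 single arrays left out (adjusted p up to 0.181). JDP2, a repressor of the AP-1 family, differed by -0.05 and -0.12, within its spread in both lines.

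DDIT4 (REDD1), an inhibitor of mTORC1 that ATF4 and other stress factors induce, had the lowest estimate of the measured genes in SUDHL-2. Its DMSO levels there were 0.54, 0.36 and 0.52 and its INK128 levels -0.86, -0.53 and -0.63. The groups were far apart, and DDIT4 fell by 1.15 (SE 0.13, adjusted p = 0.000998, limma), a 2.22-fold decrease. In SUDHL-4, where DDIT4 started much higher, the arrays read 3.37, 3.44 and 3.17 with DMSO and 3.11, 3.17 and 2.87 with INK128. The treated arrays lay just below the controls, and the difference of -0.28 did not pass (adjusted p = 0.188). Of the other 5 stress regulators TRIB3, a pseudokinase that dampens ATF4 output, fell in SUDHL-4 by 0.48 (adjusted p = 0.0244), a call that ended with each SUDHL-4 array but DMSO replicate 1 left out (up to 0.0931). PPP1R15A, the subunit that directs eIF2α dephosphorylation, had differences of -0.22 in SUDHL-2 and 0.30 in SUDHL-4, neither past the test, though in SUDHL-4 its arrays did not overlap. SESN2, a leucine-binding inhibitor of mTORC1 signalling, was not above background in SUDHL-2 in this experiment. EIF2AK4, which encodes GCN2, and GADD45A had differences between 0.02 and 0.22 in both lines, none past the test.

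Of the 10 transporters 3 fell in SUDHL-4 and 0 passed in SUDHL-2. SLC7A5, the light chain of the leucine transporter LAT1, read 3.45, 3.67 and 3.48 in SUDHL-4 with DMSO and 2.50, 2.38 and 2.12 with INK128. No treated array came near a control array, and SLC7A5 fell by 1.20 (SE 0.21, adjusted p = 0.0023, limma), or 2.30-fold. Its SUDHL-2 arrays read 1.55, 2.14 and 2.04 against 0.96, 1.40 and 1.83, with overlap and a difference of -0.51 that did not pass (adjusted p = 0.215). SLC3A2, the heavy chain that carries SLC7A5 to the membrane, had differences of -0.28 and -0.24, and its 2 probes disagreed in SUDHL-4 (-0.66, adjusted p = 0.0336, against 0.19).

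SLC1A4, a carrier of alanine, serine and cysteine, read 0.13, 0.28 and 0.02 in SUDHL-4 with DMSO and -0.44, -0.76 and -0.47 with INK128. The groups did not overlap, and it fell by 0.70 (SE 0.12, adjusted p = 0.00241, limma). In SUDHL-2 it lay near background, and 2 of 3 INK128 arrays did not detect it. SLC1A5, the glutamine carrier ASCT2, fell in SUDHL-4 by 1.01 (adjusted p = 0.0262, and up to 0.0913 without SUDHL-4 DMSO or INK128 replicate 1 or 2). In SUDHL-2 its DMSO arrays were widely spread, from 0.44 to 1.62 with the highest on replicate 1, and the difference of -0.56 did not pass.

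SLC7A11, the cystine importer, was detected on all 11 SUDHL-2 arrays and on 0 SUDHL-4 arrays. Its SUDHL-2 levels were 0.24, 0.15 and 0.12 with DMSO and -0.09, -0.06 and -0.45 with INK128. All treated arrays lay below the controls, but the difference of -0.37 did not pass (adjusted p = 0.135, limma). SLC38A2, a neutral amino acid carrier long known to be induced by amino acid shortage, had the widest interval, -1.26 to 0.39 (SUDHL-2) and -0.28 to 1.37 (SUDHL-4). SLC38A1, SLC7A1 and SLC7A6 had differences between -0.41 and 0.12. SLC6A9, a glycine carrier, was not above background in this experiment.

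PSAT1, the transaminase of serine synthesis, was among the clearest falls in SUDHL-4. Its DMSO arrays read 2.27, 2.27 and 2.01 and its INK128 arrays 0.90, 1.09 and 1.45. There was no overlap, and PSAT1 fell by 1.03 (SE 0.16, adjusted p = 0.001, limma), or 2.04-fold. Averaged with a second probe that was not detected, the difference was -0.53. In SUDHL-2 the arrays read 2.29, 2.33 and 2.28 against 1.98, 1.85 and 1.51. All treated arrays were below the controls there too, but the difference of -0.52 missed the threshold (adjusted p = 0.0906).

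MTHFD1L, a mitochondrial enzyme that releases formate from folate, fell about equally in both lines. Levels were 2.08, 1.74 and 1.70 against 0.85, 1.24 and 1.04 in SUDHL-2, and 2.47, 2.58 and 2.29 against 1.62, 1.59 and 1.72 in SUDHL-4. Treated and control arrays were separate in both, with differences of -0.79 (SE 0.14, adjusted p = 0.0113) and -0.80 (SE 0.14, adjusted p = 0.00222), limma. MTHFD2, the enzyme before it in the mitochondrial folate path, had estimates of -0.47 in both lines (adjusted p = 0.15 and 0.0804), and SHMT2, which makes glycine from serine, -0.38 and -0.25. PSPH, the last enzyme of serine synthesis, was the exception, higher in SUDHL-4 by 0.39 (adjusted p = 0.0409) with 0.37, 0.25 and 0.27 on DMSO and 0.55, 0.84 and 0.67 on INK128 arrays. These groups did not overlap, yet the call was lost with 8 of the 12 single arrays left out (adjusted p up to 0.165).

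PYCR1, the last enzyme of proline synthesis, was measured by 3 probes. Its mean level in SUDHL-4 was -0.53, -0.25 and -0.38 with DMSO and -0.97, -0.98 and -1.30 with INK128. The groups did not overlap, and it fell by 0.70 (adjusted p = 0.0173, and up to 0.0717 without DMSO replicate 2 or 3 or INK128 replicate 3). Single PYCR1 probes differed by -0.37, -1.16 and -0.57 there, so they shared the sign but not the size. In SUDHL-2 PYCR1 overlapped, with -1.07, -0.63 and -0.81 against -1.09, -0.84 and -0.43. ALDH18A1, the enzyme that starts proline synthesis from glutamate, had estimates of -0.41 and -0.28, neither past the test.

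ASNS, asparagine synthetase and a classical ATF4 target, read 3.07, 2.83 and 2.77 with DMSO and 2.63, 2.40 and 2.22 with INK128 in SUDHL-2. In SUDHL-4 it read 2.95, 2.78 and 2.93 against 2.29, 2.48 and 2.63. Every treated array lay below every control array in both lines. The differences of -0.47 and -0.42 nevertheless missed the threshold (adjusted p = 0.0814 and 0.0585, limma), the second by little. GOT1 and BCAT1, transaminases of aspartate and of branched-chain amino acids, had estimates from -0.67 to -0.33. PCK2, the mitochondrial enzyme that makes phosphoenolpyruvate (PEP), differed by less than 0.1 in either line.

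CHAC2, which degrades glutathione slowly, fell in both lines. The SUDHL-4 arrays read -0.03, -0.33 and -0.05 with DMSO and -1.34, -1.45 and -1.01 with INK128, a separation of -1.13 (SE 0.25, adjusted p = 0.00808). In SUDHL-2 they read 0.68, 0.40 and 0.72 against 0.28, -0.60 and -0.90. The treated arrays there were spread out and 1 came close to the controls, so the fall of 1.01 (adjusted p = 0.0435) was lost with 10 of 12 single arrays left out (adjusted p up to 0.147).

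CTH, the enzyme that releases cysteine from cystathionine, read -0.93, -1.33 and -0.98 in SUDHL-2 with DMSO and -1.60, -1.65 and -1.72 with INK128. It fell by 0.58 (adjusted p = 0.0212, and up to 0.0977 without DMSO replicate 1 or 3 or INK128 replicate 2 or 3), and the fall was largest on 1 of its 3 probes (-0.99). The INK128 arrays lay near the detection limit, where undetected genes averaged -1.94, so the size of the fall is uncertain. CBS, the enzyme before CTH, was measured in SUDHL-4 alone, at 3.06, 3.42 and 2.90 with DMSO and 2.26, 2.20 and 2.19 with INK128. Its groups were far apart, with a fall of 0.91 (SE 0.14, adjusted p = 0.00128, limma). XPOT, the exportin of tRNA, had estimates of -0.44 and -0.42 with adjusted p of 0.244 and 0.175.

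**Figure D2:**
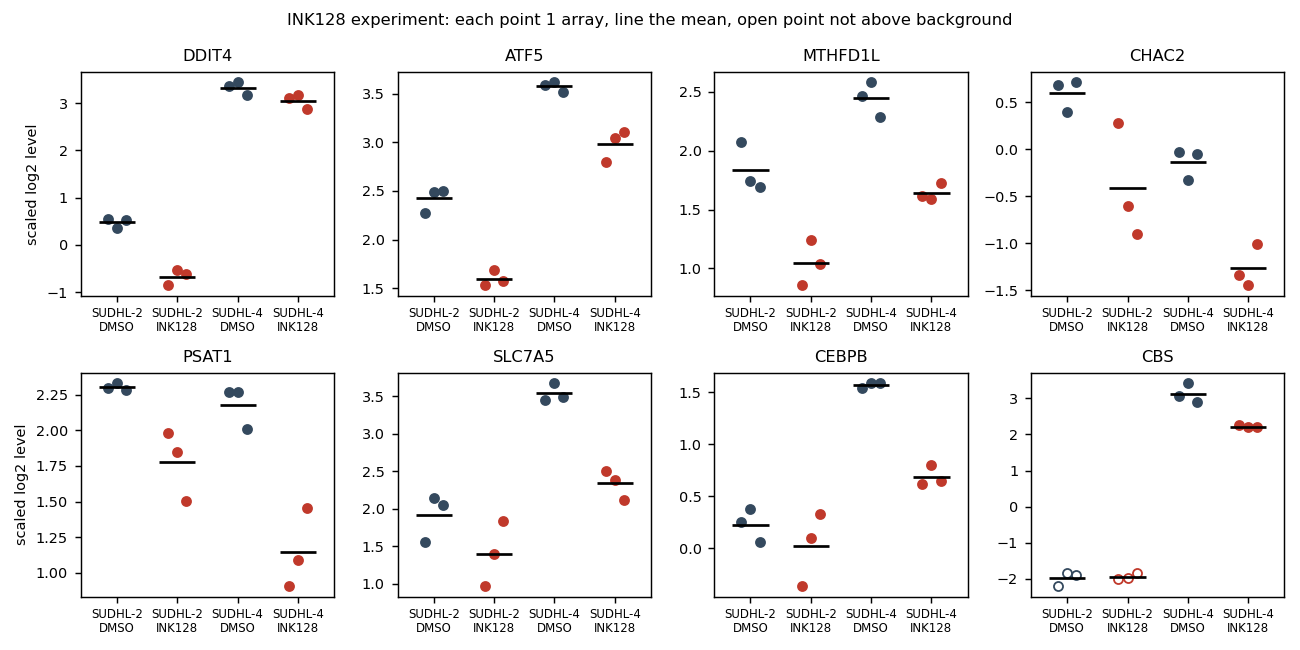
Scaled log2 level (vertical axis, 0 at the mean of the kept probes of an array) of 8 genes on each array of the INK128 experiment, by line and treatment. Points are arrays, lines group means, open points arrays where the gene was not above background. DDIT4 drops from about the mean in SUDHL-2 and stays high in SUDHL-4, ATF5 and MTHFD1L drop in both lines, and CBS is at background in SUDHL-2.

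The question of whether the lines differed in their INK128 response was put to the interaction of line and treatment. Called lower in both lines were 3 genes (ATF5, MTHFD1L and CHAC2), 2 passed in SUDHL-2 and not in SUDHL-4 (DDIT4 and CTH), and 10 passed in SUDHL-4 and not in SUDHL-2. Over all 14636 entries these classes held 65, 150 and 985. The difference between the lines itself passed for 3 of 38 genes, 1 upward and 2 downward, beside 2.19% and 2.14% of all entries (4.32% either way). Without SUDHL-2 DMSO replicate 3 it passed for 0 genes. With single arrays left out, the calls were lost with 5 of 12 for DDIT4, 9 for PSPH and 3 for CBS. Other alternatives ended the PSPH call in 7 of 13. DDIT4 responded more strongly in SUDHL-2, by -0.87 (SE 0.18, adjusted p = 0.022, limma). PSPH differed by -0.72 (adjusted p = 0.0321), with estimates of -0.33 (SUDHL-2) and 0.39 (SUDHL-4). The third was CBS (0.95), which was not above background in SUDHL-2, so the value is its fall in SUDHL-4 set against the detection limit and compares no responses. SLC1A4, CEBPB, PYCR1, SLC7A5 and PSAT1, lower in SUDHL-4 by the test, had line differences of 0.51 to 0.75 that did not pass, with adjusted p of 0.0663 for SLC1A4, 0.115 for CEBPB, 0.115 for PYCR1, 0.233 for SLC7A5 and 0.244 for PSAT1. The 95% interval for PSAT1 was 0.02 to 0.99. SLC1A4 lay near its detection limit in SUDHL-2, which bounds how far it could fall there. CTH likewise lay near its limit in SUDHL-4, where 2 of 3 DMSO arrays detected it.

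**Figure D3:**
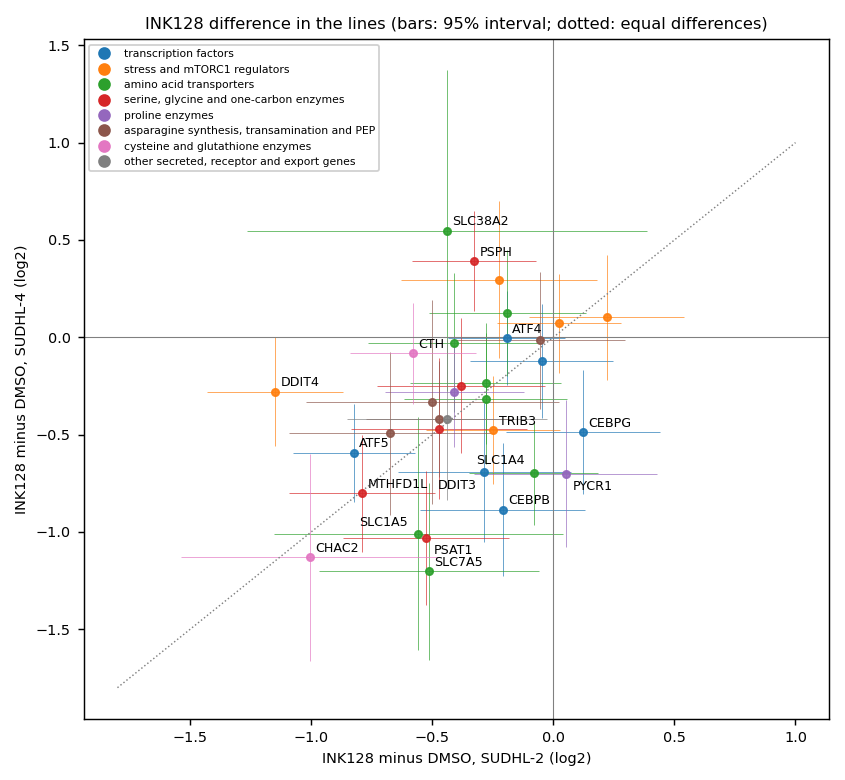
INK128 minus DMSO difference (log2) in SUDHL-2 (horizontal axis) and SUDHL-4 (vertical axis) for the measured genes above background in both lines, coloured by role, with 95% intervals as bars and equal differences on the dotted line. Most points lie below 0 on both axes, DDIT4 stands out to the left (-1.15 against -0.28), and SLC7A5 lies low on the vertical axis (-1.20).

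The promoters of the listed genes were searched for the core of the C/EBP-ATF response element, the composite site of ATF4 and a C/EBP partner. The letters searched were TGATGNAA on either strand, in RefSeq windows of 300 bases, 250 before to 50 after each start site (GRCh38.p14). They occur in 3.62% of all 35116 windows, in 4.46% of 27305 genes and in 12 of the 36 listed genes with a window. The genes were listed by name for ties to ATF4 or amino acid supply. A share above that of all genes can thus come from the choice of list, and no test of it was run. Windows were not held for GADD45A, SHMT2, NUPR1, SLC7A11, PSPH, GPT2 and PYCR1. Shown first are the matches of the 4 genes that were lower with INK128 in at least 1 line, then that of ASNS, with capitals marking the core as it reads on the strand of the gene.
MTHFD1L: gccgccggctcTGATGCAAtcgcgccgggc
SLC1A4: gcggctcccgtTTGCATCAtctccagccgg
SLC1A5: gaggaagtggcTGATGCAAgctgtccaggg
CEBPG: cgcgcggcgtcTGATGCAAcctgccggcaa
ASNS: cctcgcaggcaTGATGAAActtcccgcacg

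MTHFD1L lies on the plus strand of chromosome 6 (chr6:150866346-150866375), and the same core falls in 3 windows of its start sites, at -129, -90 and 25. Positions are those of the first base of the core. The SLC1A4 core lies on chromosome 2 (chr2:64989381-64989410, plus strand) in reverse complement. It begins 7 bases before the start and reaches the start site. SLC1A5 and CEBPG both lie on chromosome 19 (chr19:46784893-46784922, minus strand, and chr19:33374060-33374089, plus strand), with cores 97 and 42 bases before their starts. ASNS lies on chromosome 7 (chr7:97872458-97872487, minus strand), with its core 68 bases before the start. JDP2, SLC3A2, SLC7A1, SLC38A1, GOT1, BCAT1 and CHAC1 held a match as well. Of the 12 measured genes with the core 4 were lower with INK128 in SUDHL-4 and 1 in SUDHL-2. Of the 21 measured genes with a window and without these letters 8 and 4 were. A match is a description of the letters and not a measured binding site.

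With EtOH the programme did not move one way. In SUDHL-2 the amino acid genes PSAT1, SLC1A4, CTH and PSPH, the factor CEBPB and the kinase EIF2AK4 were higher, while the tRNA exportin XPOT, the phosphatase subunit PPP1R15A and the transporter SLC38A1 were lower. In SUDHL-4 none of the 38 genes passed. These are 6 higher and 3 lower in SUDHL-2, against 8.94% and 7.24% of all entries (16.2% either way), and 0 in SUDHL-4, where 0.389% of all entries passed (0.307% higher, 0.082% lower). At an unadjusted p under 0.05 limma gave 4 genes in SUDHL-4, and the thresholds of the study (a Z-ratio beyond 1.5 at p under 0.05, with false discovery rates up to 0.3) applied to the limma fit also gave 4. The median difference was 0.08 in SUDHL-2 and -0.06 in SUDHL-4, beside 0.05 and -0.03 over all entries. Groups did not overlap for 13 genes upward and 5 downward in SUDHL-2 (23.3% and 14.8% of all entries), and for 5 and 6 in SUDHL-4 (12.1% and 24.6%). The 13 include CHAC1 and SLC6A9, which met the detection rule only through the EtOH arrays of SUDHL-2. The 6 include SLC7A11, SLC6A9 and CHAC1, not above background in either group, so for these genes only the detection limits of the arrays are compared.

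XPOT, which carries tRNA out of the nucleus, showed the largest EtOH difference of the 38 genes. Its SUDHL-2 levels were -0.26, -0.16 and -0.79 with water and -1.96 and -2.05 with EtOH. Both EtOH arrays lay more than 1 log2 unit below the lowest water array, and XPOT fell by 1.60 (SE 0.24, adjusted p = 0.00126, limma, n = 2 against 3). XPOT was detected on both EtOH arrays but close to their limit, where undetected CBS read -2.03 and -2.10, so the size of the fall is uncertain. In SUDHL-4 the arrays overlapped, at -0.70, -0.47 and -0.48 with water and -1.39, -0.50 and -0.72 with EtOH.

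PPP1R15A read 2.35, 2.19 and 2.42 in SUDHL-2 with water and 1.71 and 1.51 with EtOH. The groups were separate, and it fell by 0.72 (SE 0.11, adjusted p = 0.0017, limma). In SUDHL-4 it read 1.55, 1.27 and 1.42 against 1.28, 1.44 and 1.26, with overlap. EIF2AK4 was -0.01, -0.22 and -0.22 with water and 0.29 and 0.19 with EtOH in SUDHL-2, a rise of 0.39 (adjusted p = 0.0224, and up to 0.146 without water replicate 3 or either EtOH replicate). DDIT4 had estimates of 0.20 in SUDHL-2 and 0.28 in SUDHL-4 (adjusted p = 0.193 and 0.172). GADD45A in SUDHL-4 came nearest to a call, at 0.69, 0.62 and 0.62 with water and 0.97, 1.14 and 1.02 with EtOH. These did not overlap, and the difference of 0.40 had an adjusted p of 0.0506.

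CEBPB read 0.99, 1.00 and 1.09 in SUDHL-2 with water and 1.91 and 1.47 with EtOH. Both EtOH arrays were above all controls but far from each other, and the rise of 0.67 (SE 0.14, adjusted p = 0.00706, limma) was lost without EtOH replicate 1 (adjusted p = 0.0807). In SUDHL-4 CEBPB read 1.92, 1.61 and 1.77 against 1.57, 1.61 and 1.37, a difference of -0.25 that did not pass. ATF4 stood at 1.07, 0.96 and 0.76 against 0.80 and 0.91 in SUDHL-2, and at 1.38, 1.42 and 1.30 against 1.45, 1.14 and 1.25 in SUDHL-4. Its groups overlapped in both lines, with 95% intervals of -0.32 to 0.18 and -0.31 to 0.14. DDIT3 read 0.34, 0.34 and 0.37 against 0.09 and 0.37 in SUDHL-2 and 0.91, 0.96 and 0.93 against 1.15, 1.08 and 0.75 in SUDHL-4, also with overlap.

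SLC1A4 read -1.60, -1.44 and -1.29 in SUDHL-2 with water and -0.86 and -0.90 with EtOH. The groups were separate, and SLC1A4 rose by 0.56 (SE 0.10, adjusted p = 0.00329, limma). SLC38A1, a carrier of glutamine and other neutral amino acids, read 0.72, 0.69 and 0.42 against 0.18 and 0.11. It fell by 0.46 (adjusted p = 0.00741, and 0.0668 without EtOH replicate 2), with both of its probes lower. SLC7A11 read -0.50, -0.46 and -0.59 against -0.37 and -0.20, without overlap and just short of the threshold (0.23, adjusted p = 0.0717). The kept probe of SLC6A9 was detected on the 2 EtOH arrays of SUDHL-2 and on no other array, and at -1.82 and -1.96 it lay at the edge of detection. SLC7A5 and SLC1A5 differed by 0.03 and -0.06 in SUDHL-2 and by -0.33 and -0.03 in SUDHL-4, none past the test.

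PSAT1 read 1.67, 2.05 and 2.10 in SUDHL-2 with water and 2.51 and 2.71 with EtOH. The groups were separate, and it rose by 0.67 (SE 0.14, adjusted p = 0.00765, limma), a call lost without EtOH replicate 2 (adjusted p = 0.087). In SUDHL-4 the arrays read 2.10, 2.09 and 2.08 against 2.71, 2.39 and 2.39. Those did not overlap either, but the difference of 0.41 did not pass (adjusted p = 0.17). PSPH, at 0.12, 0.14 and 0.08 against 0.34 and 0.46 in SUDHL-2, was higher by 0.29 (adjusted p = 0.0282). The PSPH rise came from 1 of its 2 probes (0.58 against 0.00), and it missed the threshold with the title numbers as a replicate block (0.27, adjusted p = 0.0525). MTHFD1L, MTHFD2 and SHMT2 differed by -0.19 to 0.17 in the lines.

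CTH read -1.69, -1.82 and -1.73 in SUDHL-2 with water and -1.28 and -1.33 with EtOH. It rose by 0.44 (SE 0.08, adjusted p = 0.00309, limma), with all 3 probes higher, and no single array decided the call. In SUDHL-4 CTH stayed at the edge of detection. CHAC1, a strongly stress-induced glutathione-degrading enzyme, was detected on the 2 EtOH arrays of SUDHL-2 only, at -1.85 and -1.89, also at the edge of detection. SLC6A9 and CHAC1 met the detection rule through these arrays alone, so no comparison with water is drawn for them. ASNS read 2.12, 2.43 and 2.41 against 2.39 and 2.56 in SUDHL-2 and 2.67, 2.77 and 2.78 against 2.60, 2.71 and 2.89 in SUDHL-4, with overlap in both. The 3 PCK2 probes and the 3 PYCR1 probes disagreed in sign in SUDHL-2 (0.66, -0.50 and 0.31 for PCK2, and -0.44, 0.61 and -1.15 for PYCR1), so their gene means of 0.16 and -0.33 describe no single transcript.

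**Figure D4:**
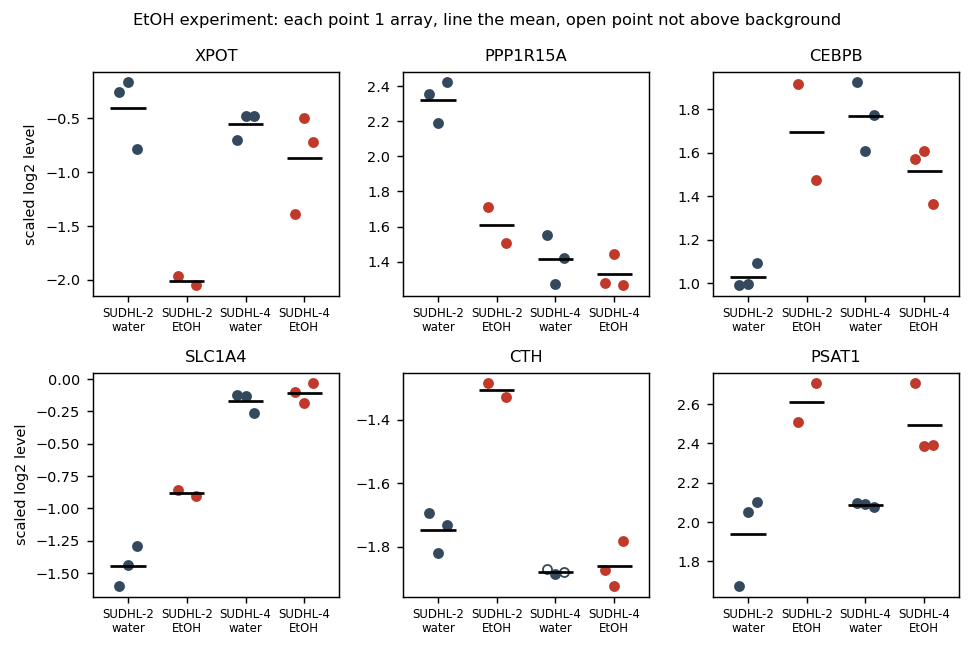
Scaled log2 level (vertical axis, 0 at the mean of the kept probes of an array) of 6 genes on each array of the EtOH experiment, by line and treatment. Points are arrays, lines group means, open points arrays where the gene was not above background. In SUDHL-2 both EtOH arrays lie below all water arrays for XPOT and PPP1R15A and above them for CEBPB, SLC1A4, CTH and PSAT1.

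The EtOH responses of the lines differed for 4 of 38 genes by the interaction test, 2 upward and 2 downward, beside 2.97% and 2.34% of all entries (5.31% either way). CEBPB differed by 0.92 (SE 0.18, adjusted p = 0.0174), XPOT by -1.29 (adjusted p = 0.0407), PPP1R15A by -0.63 (adjusted p = 0.0359) and CTH by 0.42 (adjusted p = 0.0392). All had moved in SUDHL-2 and had no call in SUDHL-4, where CTH lay near its detection limit. With single arrays left out, CEBPB lost its call with 1 of 11, PPP1R15A and CTH with 8 each and XPOT with 9. The count of calls ranged from 0 (without SUDHL-2 EtOH replicate 1) to 5. Other alternatives ended the PPP1R15A call in 8 of 13 and the CTH call in 5 of 12. They ended the XPOT call in 2 of 13 and the CEBPB call in 1 of 13. With the replicate numbers of the titles as a block the count was 7 of 38 and 1489 instead of 777 of all entries, and PPP1R15A no longer passed (adjusted p = 0.0548).

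The question of how the agents compared was put to the difference of the 2 responses, each against its own controls, in 1 fit of all 23 arrays. In SUDHL-2 10 genes stood higher in the EtOH response than in the INK128 response and 1 lower, where 2.69% and 3.51% of all entries did (6.2% either way). In SUDHL-4 9 stood higher and 1 lower, beside 4.51% and 4.74% (9.25% either way). Agent, vehicle, flask and exposure time changed together, so these cannot be told apart. PSAT1 was the farthest apart in SUDHL-4, by 1.44 (SE 0.21, adjusted p = 0.000173, limma), and by 1.19 in SUDHL-2 (SE 0.22, adjusted p = 0.00231). It had risen or stood above control with EtOH and stood below control with INK128.

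In SUDHL-2 the largest estimate was that of DDIT4, at 1.35 (SE 0.16, adjusted p = 3.34e-05), and CTH stood higher by 1.02. MTHFD1L, ATF5, SLC1A4, PSAT1 and DDIT4 passed in both lines in the same direction, MTHFD1L by 0.96 and 0.86 and ATF5 by 0.83 and 0.51. The ATF5 call in SUDHL-4 was lost under 7 of 12 alternatives, among them both replicate blocks (adjusted p = 0.0516 and 0.0644), and with 7 of 23 single arrays left out. CEBPB, SLC7A11, PSPH and ASNS also stood higher in SUDHL-2, and XPOT stood at -1.16. In SUDHL-4 CHAC2, CBS, SLC7A5 and DDIT3 stood higher by 0.75 to 1.02, and PSPH stood at -0.45. With each array left out in turn, ATF5, DDIT4, PSAT1, MTHFD1L and CTH kept their calls in SUDHL-2 and SLC1A4, PSAT1, MTHFD1L and CBS theirs in SUDHL-4.

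**Figure D5:**
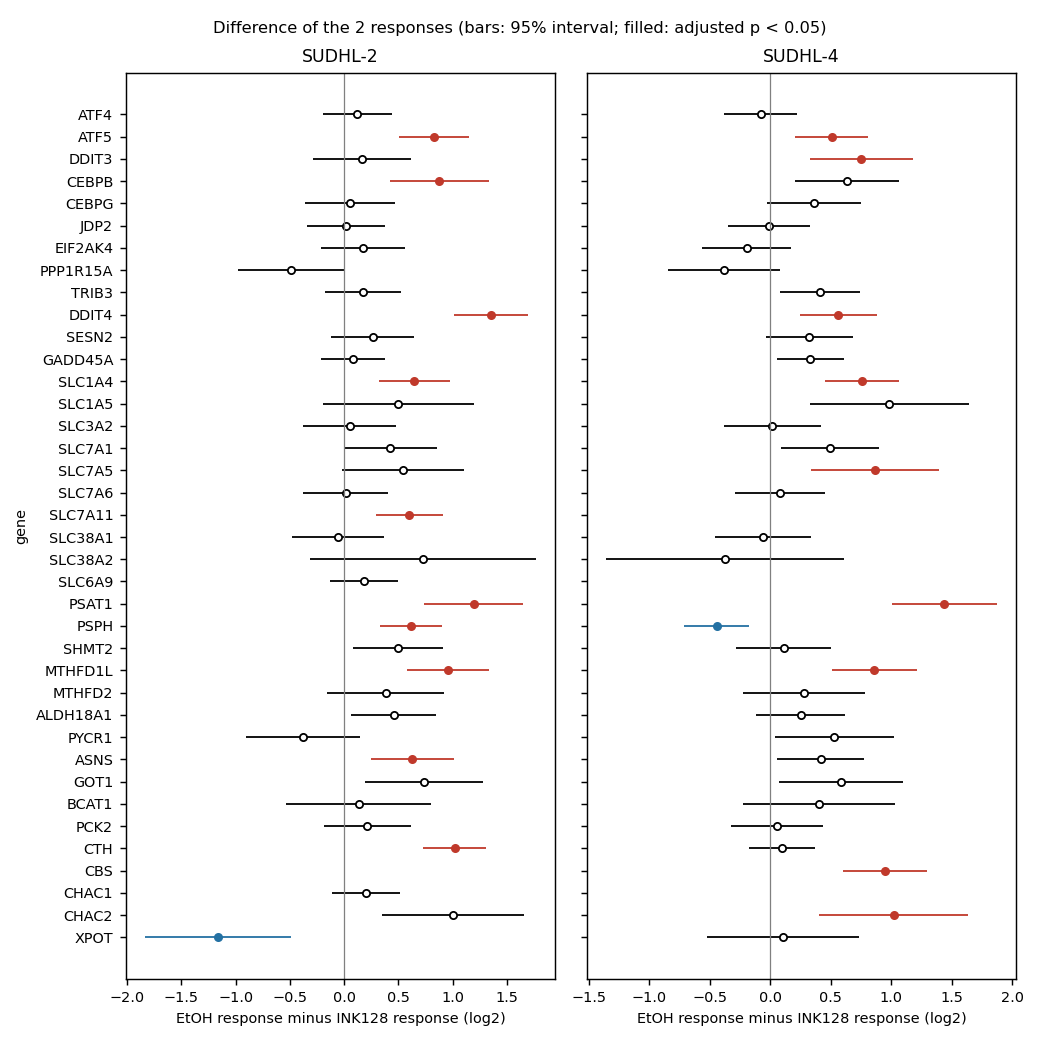
EtOH response minus INK128 response (log2, horizontal axis) of the measured genes (rows) in each line, with 95% intervals. Filled red points were called higher and filled blue points lower, open points did not pass, and genes not above background in all 4 groups of a line are left out. PSAT1, MTHFD1L, ATF5, SLC1A4 and DDIT4 lie right of 0 in both panels.

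With vehicle alone most of the 38 genes differed between the lines, as did most of all entries. In DMSO SUDHL-2 exceeded SUDHL-4 for 6 of the 38 genes and was lower for 20, beside 26.9% and 29.1% of all entries (56.1% either way). With water 8 were higher and 21 lower, beside 27.5% and 38.3% (65.9% either way), and of the 29 CHAC1 and SLC6A9 were not above background in either group. The lines' arrays did not overlap for 8 genes upward and 19 downward with DMSO (31.4% and 33.6% of all entries) and for 9 and 20 with water (29.4% and 42.4%). The counts include CBS and SLC7A11, which each met the detection rule only through 1 line, so they are no test of these genes. With water the 20 also hold CHAC1 and SLC6A9. These comparisons share their control arrays with the treatment comparisons above.

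Of the cysteine genes CBS and SLC7A11 were each detected in 1 line. CBS was not above background on any SUDHL-2 array and read 2.90 to 3.42 in untreated SUDHL-4, at least 34.4-fold lower in SUDHL-2 with DMSO and at least 40.8-fold with water, counted from the detection limit of the SUDHL-2 arrays. SLC7A11 showed the reverse, at least 4.20-fold higher in SUDHL-2 with DMSO and at least 2.58-fold with water. Both genes met the detection rule only through the line where they were high, so these bounds are a description and no test of them is given. CTH, near the detection limit in SUDHL-4, was higher in SUDHL-2 with DMSO by 0.71 (adjusted p = 0.000249), but with water the difference of 0.13 did not pass (adjusted p = 0.112).

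Among the stress regulators DDIT4 was 7.22-fold lower in SUDHL-2 with DMSO and 10.8-fold lower with water (differences of -2.85 and -3.43). GADD45A was lower by 2.47 and 2.43, near its detection limit in SUDHL-2, and SESN2 at least 2.22-fold lower with DMSO. Of the transporters SLC1A4 was lower in SUDHL-2 by 1.94 and 1.27 and SLC7A5 by 1.62 and 0.63, while SLC38A2 was higher there by 2.75 and 1.03. ATF4 itself was lower in SUDHL-2 by 0.70 (SE 0.11, adjusted p = 0.000157) with DMSO and 0.44 (SE 0.10, adjusted p = 0.00321) with water. Calls of DDIT4, GADD45A, SLC7A5, SLC1A4 and SLC38A2 held in both media with each array left out.

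Other genes of these pathways were counted the same way, with the background over all entries at 3.62% (SUDHL-2) and 15.4% (SUDHL-4) called with INK128, and 16.2% and 0.389% with EtOH. The shares of the lists in SUDHL-4 with INK128 ran from 10.0% (glutathione) to 30.4% (stress and sensing), and in SUDHL-2 with EtOH from 0% to 33.3%. Of 14 other amino acid transporters SLC43A3 fell (-0.77) and SLC43A2 (0.57) and SLC15A4 (0.58) rose with INK128 in SUDHL-4, and 0 passed in the other 3 comparisons. Of 12 other serine, glycine and one-carbon genes 3 fell with INK128 in SUDHL-4, GCSH of the glycine cleavage system by 1.45 (adjusted p = 0.000312), MTHFD1 by 0.61 and TYMS by 0.59. With EtOH in SUDHL-2 MTHFD1 rose by 0.59 and 3 fell, among them the mitochondrial serine carrier SFXN1 by 1.57 (adjusted p = 0.0317).

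Of 15 other proline, ornithine and glutamate genes 4 rose with EtOH in SUDHL-2 (GLUD1, ASL, ARG2 and PYCR3, by 0.28 to 0.62). BCKDHA and DBT, subunits of the complex that breaks down branched-chain keto acids, rose with INK128 in SUDHL-4 by 1.00 and 0.65. Of 23 other integrated stress and amino acid sensing genes 3 rose and 4 fell with INK128 in SUDHL-4, and TRIB1 (0.47) and EIF2B5 (0.39) rose with EtOH in SUDHL-2. TRIB2, a relative of TRIB3, rose by 1.79 with INK128 in SUDHL-4 (adjusted p = 5.26e-06, limma). In that comparison the eIF2B subunit EIF2B2 fell by 0.85 and the eIF2 subunit EIF2S2 by 0.72. In SUDHL-2 INK128 raised GADD45G by 0.63 and EIF2AK1 by 0.55 and lowered EIF2S3 by 0.57, with 4 of 23 called in all. GSS, glutathione synthetase, was the 1 gene called of 10 other glutathione genes, lower with INK128 in SUDHL-4 by 0.74 and higher with EtOH in SUDHL-2 by 0.60.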

How the data were processed

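Polysomal RNA of 8 groups, 23 arrays in all, was analysed. The authors read the arrays in GenomeStudio 1.9.0 and deposited the signal intensity of each probe without normalization and a detection p-value beside it. The authors also deposited a score for each probe, the Z-score of its log signal within the array, used here in 1 alternative. Of 47323 listed probes 92 had no values, and 18136 met the detection rule. Intensities were taken to log2 after raising each to at least the dimmest detected signal of the array (59.4 to 91.4). Each array was then centred and scaled over the kept probes to a common SD of 2.03. Probes of 1 symbol were averaged. Symbols came from the platform annotation of 30121 probes, of which 8 had several genes and were not named.

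limma 3.58.1 in R 4.3.3 fitted the 4 groups of an experiment together (12 arrays for INK128, 11 for EtOH), with eBayes and Benjamini-Hochberg adjustment over 14636 entries, after a test on simulated data. No source used here names the test behind the thresholds of the study. A gene not above background in 1 group was set against the detection limit and given as a bound, and in both groups it was given no fold. Promoters came from RefSeq. Figures were drawn with matplotlib 3.10.9.

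Values for each array are given for up to 10 called genes per treatment comparison by the smallest p, and for ATF4, DDIT3, ASNS and SLC7A11. Of the other pathway lists up to 3 called genes per comparison are named, by the smallest p. GADD45A (EtOH) and PSPH (INK128) in SUDHL-4, and the name PYCR3, fall outside these rules and were chosen after their values were seen. All genes and lists were chosen with earlier results of these data known.

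Pairing was checked by the correlation of same-numbered treated and control arrays in their deviations from the group means. By the titles it was 0.42 and 0.55 (SUDHL-2) and 0.39, 0.19 and 0.14 (SUDHL-4) with EtOH, so these numbers may pair the arrays, on the data alone. With 2 EtOH arrays in SUDHL-2 their deviations mirror each other, so 0.42 and 0.55 are not separate checks. No fit in the report is paired unless a replicate block is named. Alternatives were quantile normalization, median centring, normexp background correction, other detection filters, the deposited Z-scores, single probes, separate fits of the lines or 1 fit of all arrays, replicate blocks, trend and robust eBayes, the thresholds of the study, and leaving out each array.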

Additional observations from a re-analysis of the deposited data

Results flagged for a closer look

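In 7 cases the fitted difference between the lines' responses passed the test, and each of these calls was lost with at least 1 array left out. With INK128 the losses came with 5 (DDIT4), 9 (PSPH) and 3 (CBS) of 12 single arrays. With EtOH they came with 1 (CEBPB), 8 (PPP1R15A), 8 (CTH) and 9 (XPOT) of 11. With INK128 DDIT4 differed by -0.87 between SUDHL-2 and SUDHL-4 (adjusted p = 0.022, limma; all 3 treated arrays lower than all controls in SUDHL-2). PSPH differed by -0.72 (adjusted p = 0.0321), with treated arrays below all controls in SUDHL-2 and above them in SUDHL-4. For CBS the fitted value was 0.95, but SUDHL-2 was not above background, so it is the fall in SUDHL-4 set against the detection limit and no difference in response was tested.

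With EtOH CEBPB differed by 0.92 (adjusted p = 0.0174), PPP1R15A by -0.63 (adjusted p = 0.0359), CTH by 0.42 (adjusted p = 0.0392) and XPOT by -1.29 (adjusted p = 0.0407). CTH was near its detection limit in SUDHL-4, with 1 of 3 water arrays detected, and XPOT on the EtOH arrays of SUDHL-2. In SUDHL-2 both EtOH arrays lay outside the range of the water arrays for all 4 genes. The highest adjusted p with 1 array left out was 0.072 for DDIT4, 0.091 for PSPH, 0.0602 for CBS, 0.0687 for CEBPB, 0.142 for PPP1R15A, 0.124 for CTH and 0.137 for XPOT.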

How the results depend on the processing

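The number of the 38 genes called with INK128 in SUDHL-2 (5) was 9 under quantile normalization, 3 with no filter, 0 with each line alone, 11 with all 23 arrays in 1 fit and 10 at the study's thresholds. EtOH in SUDHL-2 (9) gave 5 at the study's thresholds. EtOH in SUDHL-4 (0) gave 1 under quantile normalization, with no filter and with the deposited Z-scores, and 4 at the study's thresholds. The INK128 line difference (3) gave 5 under quantile normalization, 1 with median centring, 1 with probes detected on every array, 8 with all arrays and 6 at the study's thresholds. The EtOH line difference (4) gave 2 with probes detected on every array, with the deposited Z-scores and with all arrays, 7 with the titles as a replicate block and 9 with the sample names as a block. The lines differed for 7 genes with DMSO (26) and 4 with water (29) at the study's thresholds. The other 106 counts stayed within 1.5 times.

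With 1 array left out the counts ranged from 3 to 8 and 9 to 15 for INK128 in SUDHL-2 and SUDHL-4, 5 to 10 and 0 to 1 for EtOH, 0 to 6 and 0 to 5 for the line differences, 6 to 12 and 4 to 13 for EtOH minus INK128, and 23 to 26 and 24 to 29 for the lines with DMSO and water. The count of 3 came without SUDHL-2 DMSO replicate 1 or 3 or INK128 replicate 2 or 3, that of 9 without SUDHL-4 DMSO or INK128 replicate 3, those of 5 and 6 without SUDHL-2 EtOH replicate 2, and that of 4 without SUDHL-4 EtOH replicate 2. No single array decided the calls of ATF5, DDIT4 and MTHFD1L in SUDHL-2 and of ATF5, CEBPB, SLC1A4, SLC7A5, PSAT1, MTHFD1L, CBS and CHAC2 in SUDHL-4 with INK128, and of PPP1R15A, SLC1A4, CTH and XPOT in SUDHL-2 with EtOH. With no filter PSAT1 was averaged with an undetected probe and differed by -0.53 (INK128, SUDHL-4) and 0.33 (EtOH, SUDHL-2).

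ATF4 with INK128 in SUDHL-4 (-0.01) changed sign to 0.0177 under quantile normalization, 4e-04 with normexp, 0.0031 with probes detected on every array, 0.0023 with no filter and 0.13 with each probe apart, and ran from -0.0635 to 0.0476 with 1 array left out. DDIT3 with EtOH in SUDHL-4 (0.06) was -0.0137 under quantile normalization and -0.0155 with normexp, and with 1 array left out ran from -0.0209 to 0.1801 there and from -0.2608 to 0.0234 in SUDHL-2. ASNS with EtOH in SUDHL-4 (0.00) was 6e-04 with median centring and 0.0044 with probes detected on every array, and ran from -0.08 to 0.0605 with 1 array left out. The cause was not tested.

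Over all entries INK128 in SUDHL-2 (530) gave 284 with median centring, 333 with probes detected on every array, 823 under quantile normalization, 1494 with all arrays and 1506 at the study's thresholds; median centring moved the higher calls there from 315 to 129 and in SUDHL-4 from 1210 to 642. EtOH in SUDHL-2 (2367) gave 1223 to 1476 in 3 settings, EtOH in SUDHL-4 (57) 0 to 1208, and the line differences (633 and 777) 315 to 1635 and 366 to 1489. EtOH minus INK128 in SUDHL-2 (907) gave 550 in 1 setting, the lines with DMSO (8205) 1641 at the study's thresholds, and those with water (9642) 1303 to 30922. The median of all entries between the lines with water was -0.11, and -0.25 with median centring, so values there are relative to it. By number the INK128 arrays gave correlations of both signs (SUDHL-2 0.47, -0.21 and 0.27, SUDHL-4 -0.31, 0.22 and 0.17), which do not settle whether they pair. With the replicate block the genes called were 6 and 14 with INK128, and 11 and 0 (titles) or 10 and 0 (names) with EtOH. The block ended the calls of PSPH with INK128 (adjusted p = 0.0835, line difference 0.0637) and of EIF2AK4 by names (0.0626), and for EtOH minus INK128 those of SLC7A11 (0.0631) and PSPH (0.0729) in SUDHL-2 and of ATF5 (0.0516) and PSPH (0.0951) in SUDHL-4. It gave ASNS a call with INK128 in SUDHL-4 (0.0473). The slide as a block was not run.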

Other observations

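The control arrays of SUDHL-2 in the 2 experiments stood at different levels for several stress genes, given here as values with no test because vehicle, exposure time and experiment changed together. PPP1R15A read 0.84, 0.78 and 0.77 with DMSO and 2.35, 2.19 and 2.42 with water, TRIB3 0.71, 0.95 and 0.91 against 2.01, 1.96 and 2.00, and ATF5 2.27, 2.49 and 2.50 against 3.27, 3.21 and 3.33. In SUDHL-4 the same controls read 0.60, 0.62 and 0.51 against 1.55, 1.27 and 1.42 for PPP1R15A, 1.65, 1.82 and 1.76 against 2.07, 1.82 and 1.88 for TRIB3, and 3.59, 3.62 and 3.52 against 3.52, 3.14 and 3.37 for ATF5.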
